A study of Mus musculus with 7 samples.

Results

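The genes described here make fatty acids and triglycerides or switch that synthesis on: Fasn, Scd1, Acaca, Acly, Dgat2, Elovl6, Srebf1, Mlxipl, Acsl1 and Pck1. They were taken as a fixed list of 10 symbols, matched to gene identifiers in the count files, and are 10 of the 56854 identifiers that all 7 files share. Each symbol matched 1 identifier, and all 10 passed the filter on low counts. The list is called synthesis enzymes, but Srebf1 and Mlxipl encode transcription factors and not enzymes. The samples were whole shoulder joints of mice, with 1 RNA sequencing library each from poly(A) RNA, taken 2 weeks after surgical reattachment of a rotator cuff tendon, the supraspinatus, on the left side. The 3 wild-type and the 4 Tnc-/- samples all had this repair, and no unoperated joint is among the samples. Tnc-/- mice carry no working copy of the gene for the matrix glycoprotein Tenascin C. How the allele was made, strain, age and sex are not given in the sources used here, nor whether each sample is 1 animal, so p-values measure the spread between these samples.

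Fatty acid synthesis starts from citrate, which is split in the cytosol to acetyl-CoA, carboxylated to malonyl-CoA and built into palmitate. Palmitate is then activated with coenzyme A, elongated, desaturated and joined to glycerol as triglyceride. Adipocytes, the fat-storing cells found around joints, in bone marrow and between muscle fibres, run this pathway at a high rate, and fat that gathers in the repaired cuff muscle is a known feature of rotator cuff disease. Transcription factors control the pathway: SREBP-1, from Srebf1, answers to insulin and sterol supply, and ChREBP, from Mlxipl, answers to glucose.

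Gene counts per library were 13464057 to 18503833 in wild type and 19250322 to 28191101 in Tnc-/-. Tnc, the targeted gene, was at 284 to 436 CPM (counts scaled to library size) in wild type and at 33.3 to 54.9 CPM in Tnc-/-. Wild-type and Tnc-/- files list different sets of identifiers, so an effect of the counting cannot be told apart from one of genotype below. Wild-type libraries 2 and 3 stood apart from the other 5. Smell and pheromone receptor genes, which a joint should not express, summed to 1268 and 904 CPM there, against 85.5 CPM in wild-type library 1 and 35.96 to 43.4 CPM in Tnc-/-. This sum was higher in every wild-type library than in any Tnc-/- library. A fit with it as a term therefore shares part of the genotype difference with that term. Markers of the labelled tissue were present in every library: Col1a1, Tnmd and Thbs4 of tendon, Acan and Col2a1 of cartilage, and Bglap and Ibsp of bone. Scx, a tendon transcription factor, was listed at 0 in all 7 libraries.

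Per kilobase of exon, the scale on which genes can be compared, Scd1 was the most abundant of the 10 in both genotypes. It stood at 164 ± 74.0 CPM per kb in wild type (SD, n = 3) and 177 ± 77.6 in Tnc-/- (SD, n = 4). In wild type Dgat2 (27.1 ± 3.12), Fasn (25.8 ± 11.6), Acly (21.1 ± 3.49) and Acsl1 (16.2 ± 2.96 CPM per kb) followed. The ranges of Dgat2, Fasn and Acly over the wild-type libraries overlapped, so the order of these neighbours is not larger than their spread. Srebf1 (14.1 ± 2.68), Pck1 (13.7 ± 3.98) and Mlxipl (9.03 ± 1.96 CPM per kb) came next. Acaca (6.08 ± 3.18) and Elovl6 (3.51 ± 0.863 CPM per kb) were lowest. In Tnc-/- the order was the same but for 2 exchanges, Fasn (46.2 ± 19.6) above Dgat2 (37.7 ± 12.01) and Pck1 (21.3 ± 9.56) above Srebf1 (20.5 ± 1.25 CPM per kb), each within the spread.

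**Figure D1:**
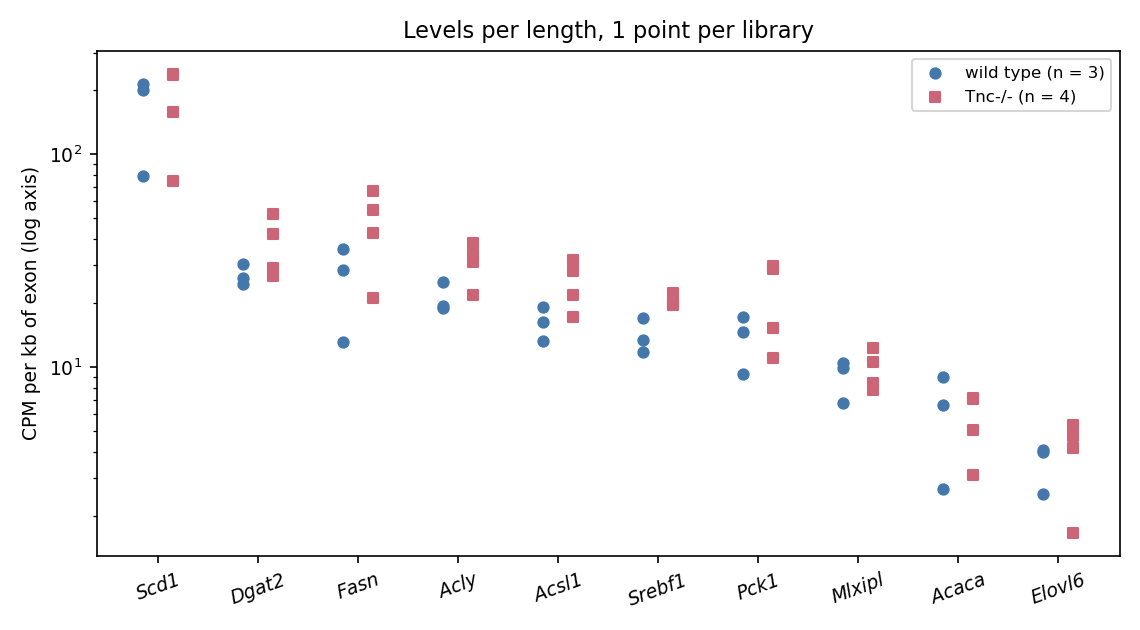
Level of each gene per kilobase of exon (CPM per kb, log axis), 1 point per library, wild type as circles (n = 3) and Tnc-/- as squares (n = 4). Scd1 lies above all other genes in every library, and Acaca and Elovl6 lie at the bottom.

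Acly, Acaca and Fasn encode the enzymes that lead from citrate to palmitate. Wild-type libraries 1 to 3 held 99.9, 133 and 102 CPM of Acly, the ATP citrate lyase that makes cytosolic acetyl-CoA, and Tnc-/- libraries 1 to 4 held 179, 164, 202 and 115 CPM. In Tnc-/- libraries 1 to 3 Acly was higher than in any wild-type library, and library 4 fell among the wild-type values. The log2 fold change, Tnc-/- relative to wild type, was 0.55 (SE 0.21; edgeR, adjusted p = 0.0789). Acaca, the acetyl-CoA carboxylase that makes malonyl-CoA, was at 45.7, 153 and 113 CPM in wild type and at 86.4, 120.1, 121 and 53.1 CPM in Tnc-/-. Both the lowest and the highest Acaca level were in wild type, and the log2 fold change was -0.15 (SE 0.42; adjusted p = 0.81), and 0.25 without wild-type library 2. Acaca is the longest of the 10 genes, spanning 272 kb in GENCODE M21, and its 2 high wild-type values are in the libraries with high receptor gene levels, whose part in them was not tested.

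Fasn, the fatty acid synthase that assembles palmitate, had the widest range of the 10 genes, 5.11-fold from the lowest to the highest library. Wild-type libraries 1 to 3 held 143, 393 and 313 CPM of it and Tnc-/- libraries 1 to 4 held 465, 598, 733 and 229.7 CPM, from 2673 to 13100 counts. Tnc-/- libraries 1 to 3 were higher than every wild-type library, but library 4 lay below wild-type libraries 2 and 3. Means ± SD were 283 ± 127 CPM over the 3 wild-type and 506 ± 214 CPM over the 4 Tnc-/- libraries. The log2 fold change of 0.81 (SE 0.44) was the largest of the 10 and did not pass the test (edgeR, adjusted p = 0.191).

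Elovl6 and Scd1 encode the enzymes that lengthen palmitate and put a double bond into the product. Scd1, the stearoyl-CoA desaturase, was at 387, 978 and 1044 CPM in wild type and at 774, 1151, 1171 and 366 CPM in Tnc-/-. The lowest wild-type and the lowest Tnc-/- library were thus close to each other, as were the highest. The log2 fold change was 0.083 (SE 0.45; edgeR, adjusted p = 0.908). Elovl6, the elongase of palmitate, was at 16.2, 26.1 and 25.5 CPM in wild type and at 26.7, 30.4, 34.4 and 10.7 CPM in Tnc-/-. Its Tnc-/- library 4 was the lowest of all 7 and the other 3 were the highest, so the log2 fold change was small with a large error (0.15, SE 0.37; adjusted p = 0.781).

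Acsl1, Dgat2 and Pck1 serve the assembly of triglyceride. Acsl1, which activates fatty acids with coenzyme A for storage or oxidation, was at 201, 139 and 169.7 CPM in wild type and at 228, 334, 295 and 179.8 CPM in Tnc-/-. Of the Tnc-/- libraries, 3 were above all wild-type libraries, and the log2 fold change was 0.59 (SE 0.23; edgeR, adjusted p = 0.0854). Dgat2, which adds the last fatty acid to diacylglycerol, was at 75.3, 94.0 and 81.0 CPM in wild type and at 90.0, 130.5, 162 and 82.9 CPM in Tnc-/-. Its log2 fold change was 0.46 (SE 0.24; adjusted p = 0.1799), and 0.25 without Tnc-/- library 3 (adjusted p = 0.425). Pck1, the cytosolic phosphoenolpyruvate carboxykinase that supplies glycerol backbones in fat, was at 31.8, 50.05 and 58.6 CPM in wild type and at 52.0, 103, 99.0 and 37.9 CPM in Tnc-/-. Tnc-/- libraries 2 and 3 were higher than any other, the rest of the groups overlapped, and the log2 fold change was 0.61 (SE 0.37; adjusted p = 0.243). Without Tnc-/- library 2 it was 0.40 (edgeR, adjusted p = 0.487).

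The transcription factors gave the 1 called gene. Srebf1 rose in Tnc-/-, with means ± SD of 79.4 ± 15.1 CPM over 3 wild-type and 116 ± 7.05 CPM over 4 Tnc-/- libraries. Wild-type libraries 1 to 3 held 96.0, 66.5 and 75.7 CPM and Tnc-/- libraries 1 to 4 held 113, 110.1, 126 and 113 CPM. The lowest Tnc-/- value was higher than the highest wild-type value, and within Tnc-/- the range was 1.14-fold, the narrowest of the 10 genes in that group. The log2 fold change was 0.52 (SE 0.14; edgeR, adjusted p = 0.0269). The call was lost in 13 of 19 alternatives, among them 6 of the 7 fits that left out a library, where adjusted p reached 0.098 and the log2 fold change ran from 0.42 to 0.76. Leaving out wild-type library 1 kept it. Scaling by library totals lowered the value to 0.29 (edgeR, adjusted p = 0.0792). Without both wild-type libraries 2 and 3, the log2 fold change was 0.26 (edgeR, adjusted p = 0.339), and with the receptor gene sum as a term in the fit it was 0.13 (adjusted p = 0.768). Mlxipl, which encodes ChREBP, was at 37.6, 57.6 and 54.8 CPM in wild type and at 43.2, 67.8, 58.5 and 46.4 CPM in Tnc-/-. Its groups overlapped and the log2 fold change was 0.088 (SE 0.21; adjusted p = 0.782).

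**Figure D2:**
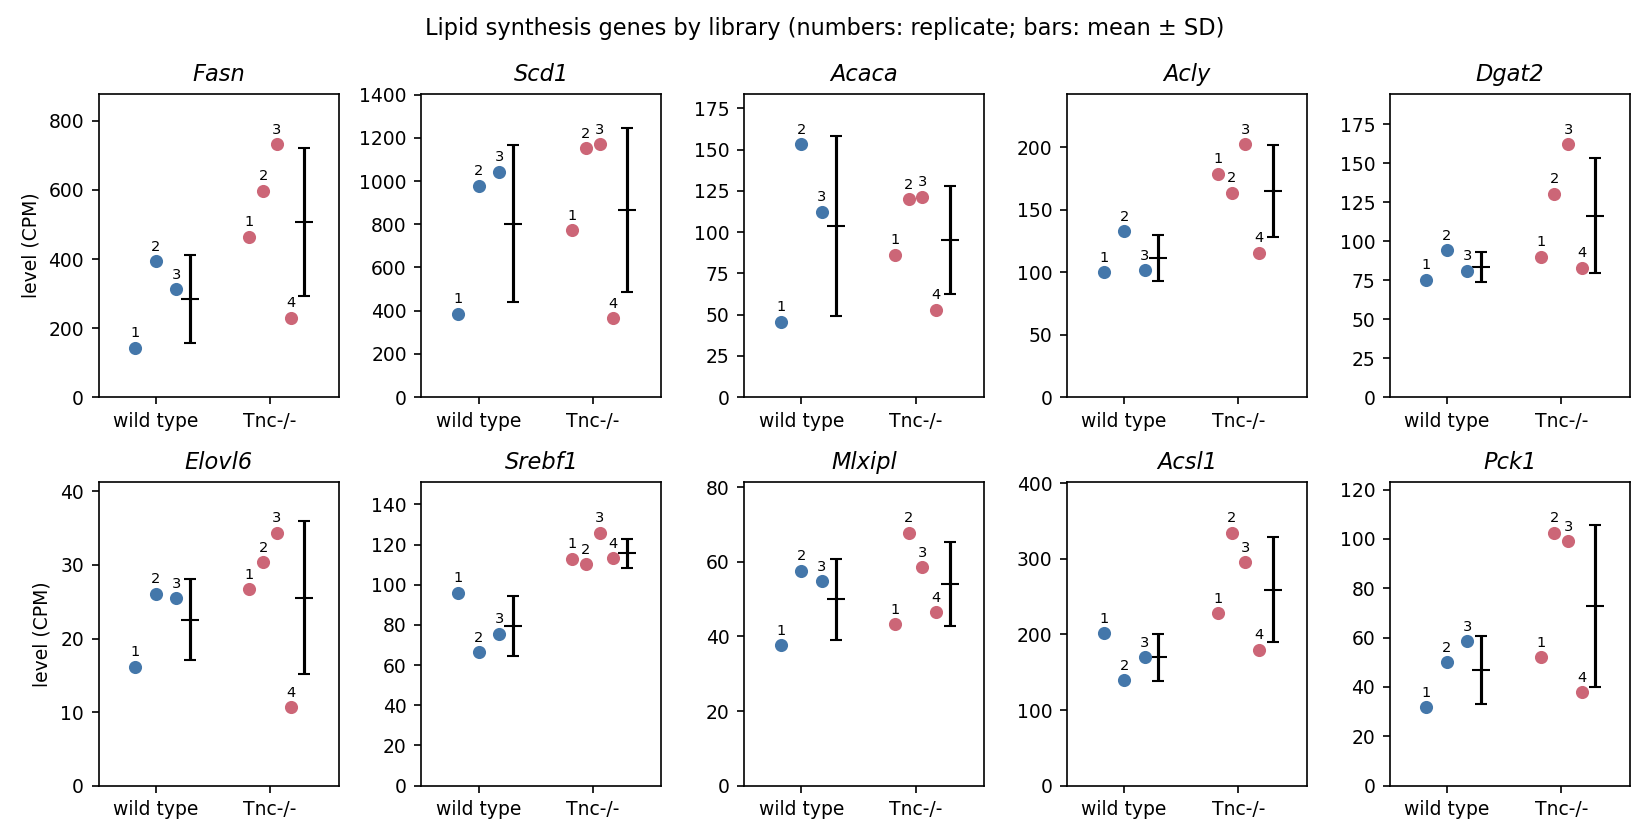
Level in CPM of each of the 10 genes in every library, with linear axes from 0; numbers give the replicate and the bars the mean ± SD of 3 wild-type or 4 Tnc-/- libraries. The groups are apart for Srebf1 alone, and Tnc-/- library 4 lies low in most panels.

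Of the 10 genes, 1 was called and it was higher in Tnc-/-, which is 10% of the list. Among all 17791 genes tested, 29.0% were called, 10.3% higher and 18.7% lower in Tnc-/-, so the share of calls in the list is not above the background. At an unadjusted p under 0.05 there were 3, Srebf1, Acly and Acsl1, against 42.3% of all genes tested. Groups did not overlap in 1 of the 10 genes, against 35.3% of all genes tested. The log2 fold change was above 0 in 9 of 10 genes, with a median of 0.49, where 49.9% of all genes were above 0 and their median was -9.0e-04. The 10 genes were measured in the same libraries, so these are counts of the list and not of independent values. Scaling by library totals moved the median of all genes to -0.24. It left 6 of 10 genes above 0, with Scd1, Elovl6 and Mlxipl turned below it, and a list median 0.49 above that of all genes.

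**Figure D3:**
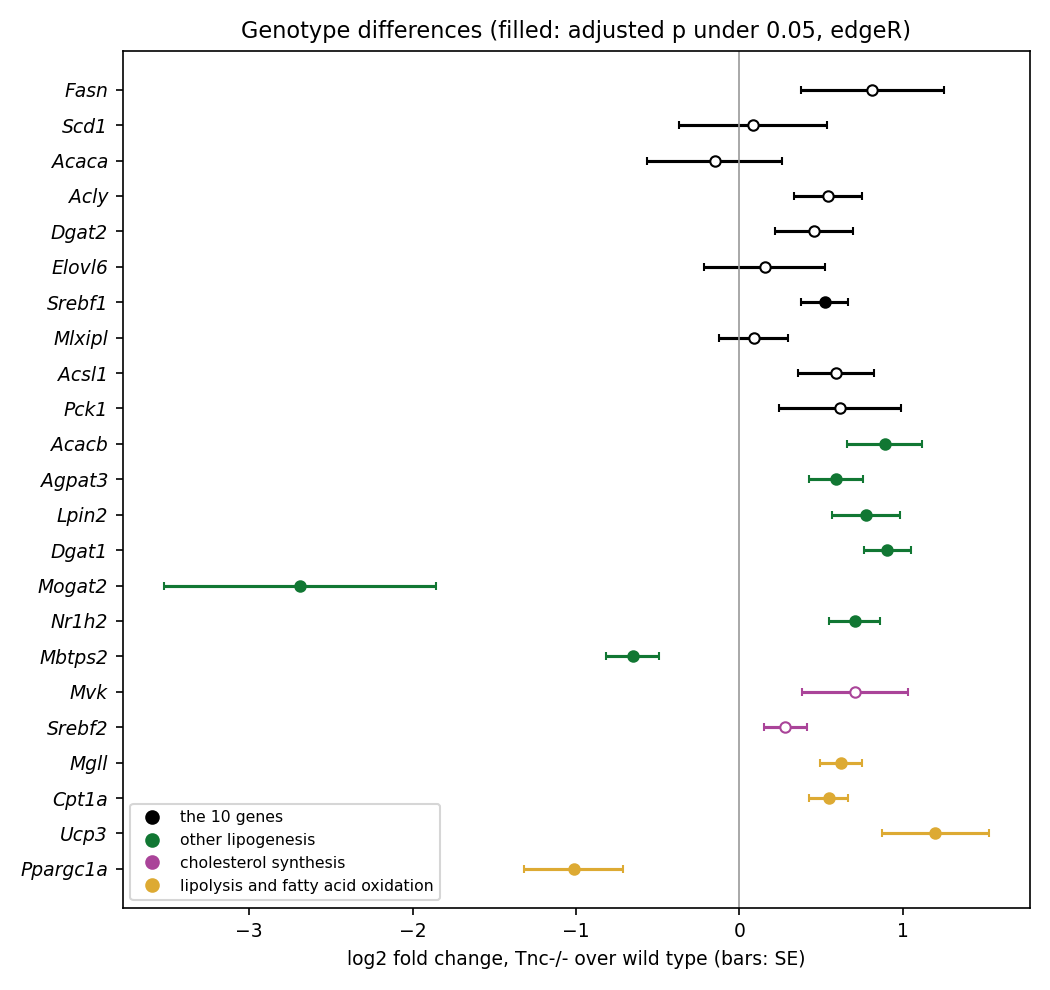
Log2 fold change, Tnc-/- relative to wild type, with SE bars, for the 10 genes and genes named from the related lists, without Fdps; filled points have an adjusted p under 0.05 (edgeR). Srebf1 is the 1 filled point among the 10 genes, with Fasn, Acsl1, Pck1 and Acly further right or close to it and open.

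Sequence around the start sites was examined for Fasn, the gene of the widest range, Srebf1, the called gene, and Acsl1. Promoters, 250 bases before to 50 after a start site, came from RefSeq (GRCm38.p6), which listed 12 starts for 8 of the 10 genes. They are printed 5′ to 3′ on the gene's strand, with matches in capitals to a CCAAT box (CCAAT), the sterol regulatory element bound by SREBP (TCACNCCAC) or an E-box (CACGTG), on either strand. The Fasn promoter is at chr11:120824498-120824797 (minus strand), the most downstream of 3 Srebf1 promoters at chr11:60210422-60210721 (minus strand) and the downstream of 2 Acsl1 promoters at chr8:46490716-46491015 (plus strand).
Fasn: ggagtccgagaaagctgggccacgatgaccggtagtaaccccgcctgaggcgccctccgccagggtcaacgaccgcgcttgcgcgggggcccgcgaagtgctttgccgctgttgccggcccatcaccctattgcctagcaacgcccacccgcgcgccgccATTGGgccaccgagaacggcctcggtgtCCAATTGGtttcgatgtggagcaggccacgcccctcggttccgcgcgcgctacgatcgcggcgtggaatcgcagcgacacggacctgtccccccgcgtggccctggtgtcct
Srebf1: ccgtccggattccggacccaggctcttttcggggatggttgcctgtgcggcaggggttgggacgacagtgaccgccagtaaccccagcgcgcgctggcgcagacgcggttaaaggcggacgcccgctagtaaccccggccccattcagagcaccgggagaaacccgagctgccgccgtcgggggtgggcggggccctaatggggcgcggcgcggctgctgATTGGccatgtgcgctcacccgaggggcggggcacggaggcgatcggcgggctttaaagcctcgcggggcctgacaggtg
Acsl1: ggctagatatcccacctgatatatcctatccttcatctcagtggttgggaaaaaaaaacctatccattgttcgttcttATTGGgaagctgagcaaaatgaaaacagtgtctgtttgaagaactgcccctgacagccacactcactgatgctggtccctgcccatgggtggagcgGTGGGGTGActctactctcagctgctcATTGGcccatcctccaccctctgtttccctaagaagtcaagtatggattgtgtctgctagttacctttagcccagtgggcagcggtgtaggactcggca
The Fasn window held 3 CCAAT matches, a pair of them overlapping on opposite strands, the Srebf1 window 1, and the Acsl1 window 2 with 1 sterol element. Over the 12 starts, a CCAAT box was found at 6, the sterol element at 2 (Acsl1 and Mlxipl) and an E-box at 1 (Mlxipl). Of all 32851 listed promoters, 37.4% held a CCAAT box, 1.24% the sterol element and 7.15% an E-box. A match is a run of letters and not a measured binding site.

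Most of the 10 genes were low in the same library of each genotype. Deviations from each gene's own mean over the 7 libraries, on the log2 scale, averaged -0.60, 0.012 and -0.057 in wild-type libraries 1 to 3 and 0.071, 0.49, 0.57 and -0.48 in Tnc-/- libraries 1 to 4. Wild-type library 1 was the lowest of the wild-type libraries for 8 of 10 genes, all but Srebf1 and Acsl1. Tnc-/- library 4 was the lowest of its group for 8 of 10, all but Srebf1 and Mlxipl. Tnc-/- library 3 was the highest of its group for 7 of 10. Srebf1 and Acsl1 ran the other way in wild type, where both were highest in library 1 and lowest in library 2. In Tnc-/- Acsl1 was lowest in library 4 with most of the list, and Srebf1 was not.

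Markers of fat tissue moved with this pattern. White adipocyte markers, 12 genes with Adipoq, Lep and Retn first and Lipe at 0 in all libraries, had sums of 555, 927 and 599 CPM for wild type, replicates 1 to 3, and of 752, 1096, 1115 and 690.1 CPM for Tnc-/-, replicates 1 to 4. Their mean deviation was -0.55, 0.35 and -0.37 in wild type and -0.11, 0.42, 0.49 and -0.24 in Tnc-/-, low in the same 2 libraries as the 10 genes but low also in wild-type library 3. Of the 11 markers tested, 8 had a log2 fold change above 0, with a median of 0.37, and 1 was called. Of all genes tested, 49.9% were above 0 and 29.0% were called, 10.3% higher in Tnc-/-. The share of calls among the markers was thus not above the background. Adipoq alone was called, higher in Tnc-/- (0.63, SE 0.21; edgeR, adjusted p = 0.0491), and Retn (-0.20), Aqp7 (-0.29) and Pparg (-0.996, adjusted p = 0.0943), the fat cell transcription factor, were below 0 and not called. Pparg was at 10.1 CPM in wild-type library 1, within its Tnc-/- range of 9.67 to 17.3 CPM, and at 34.3 and 34.6 CPM in wild-type libraries 2 and 3, which stood apart. Adipoq, the gene of the adipocyte hormone adiponectin, was at 38.3, 40.3 and 35.4 CPM in wild type and at 59.6, 68.1, 72.2 and 39.1 CPM in Tnc-/-. Ucp1, the uncoupling protein of brown fat, had a wider range, with 11.5, 36.1 and 32.4 CPM in wild type and 27.6, 67.3, 72.8 and 9.15 CPM in Tnc-/-. Of 7 brown adipocyte markers tested, 2 were above 0, Ucp1 and Cox8b, with a median log2 fold change of -0.46, and Ppargc1a was called lower. The 8 brown adipocyte markers together summed to 197 to 341 CPM in wild type and to 206 to 377 CPM in Tnc-/-. In whole joints, fewer fat cells and less RNA per fat cell cannot be told apart.

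Markers of other cells that make lipid were low. The 8 sebaceous gland markers, with Mc5r, Awat1 and Awat2 first, summed to 15.4, 53.7 and 45.0 CPM in wild type and to 10.4 to 14.1 CPM in Tnc-/-, highest in the libraries with high receptor gene levels. The 8 epidermis markers summed to 3.27 to 10.3 CPM in wild type and 2.70 to 3.84 CPM in Tnc-/-, with Krt5, Krt14 and Krt1 each at 0.697 CPM or less in every library and Krt15 and Flg2 listed at 0. Dsg3 was at 1.55, 9.65 and 6.62 CPM in wild type and at 0 in all 4 Tnc-/- libraries, and was called lower (edgeR, adjusted p = 0.0074). Krt10 was at 0.518 to 1.49 CPM in wild type and at 2.33 to 2.84 CPM in Tnc-/- and was not called (adjusted p = 0.0776). The 7 liver markers summed to 16.9 to 44.3 and 21.1 to 40.8 CPM. Wild-type libraries 2 and 3 held 11.8 and 3.58 CPM of Alb, the other 5 held 0.111 CPM or less, and Apob was at 0 outside wild-type libraries 2 and 3. Tissue markers of the joint ran the other way in Tnc-/- library 4, where the tendon list summed to 23011 CPM against 12658 to 14910 CPM in the other Tnc-/- libraries. The cartilage list summed to 3417 CPM there against 1253 to 2363 CPM, and the bone list to 1250 against 939 to 1061 CPM. Wild-type library 1, also low for most of the 10 genes, held 17240 CPM of the tendon list against 10425 and 13133 CPM in wild-type libraries 2 and 3. Its cartilage list summed to 2343 against 1383 and 1699 CPM, and its bone list to 1194 against 882 and 782 CPM. The skeletal muscle list summed to 24277 to 34393 CPM in wild type and to 36336 to 54168 CPM in Tnc-/-, without overlap. Of its 10 genes, 6 were higher in every Tnc-/- library than in every wild-type library, against 18.3% of all genes tested. The part of these tissues in the levels of the 10 genes was not tested.

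**Figure D4:**
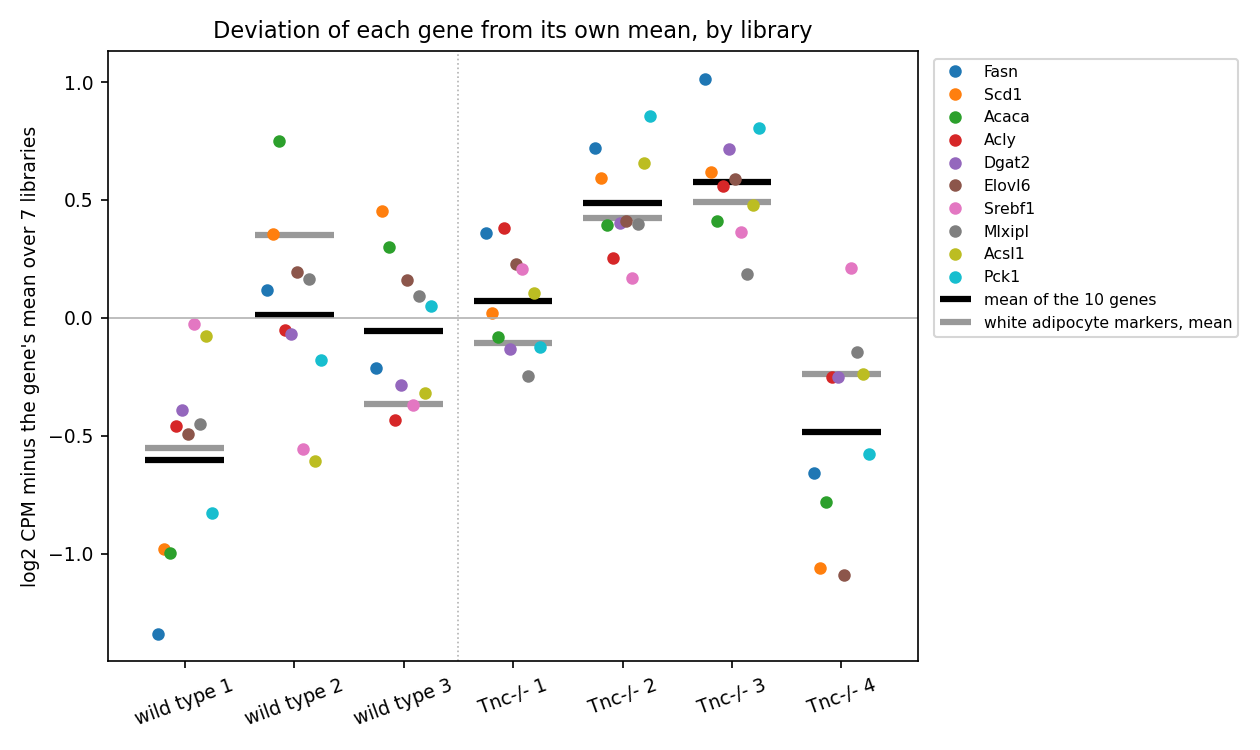
Deviation of log2 CPM from each gene's mean over the 7 libraries, 1 point per gene and library, with the mean of the 10 genes as a black bar and that of the white adipocyte markers as a grey bar. Both bars are low in wild-type library 1 (-0.60 and -0.55) and Tnc-/- library 4 (-0.48 and -0.24) and high in Tnc-/- libraries 2 and 3.

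Set against the adipocyte markers within each library, none of the 10 genes separated the genotypes, where 23.4% of all genes tested did on the same scale. The log2 CPM of Fasn minus the mean log2 CPM of the 11 tested markers had a mean ± SD of 3.07 ± 0.47 over 3 wild-type and 3.57 ± 0.43 over 4 Tnc-/- libraries. For Scd1 the difference was 4.56 ± 0.63 and 4.33 ± 0.48. For Srebf1 it was 1.34 ± 0.73 and 1.56 ± 0.34, from 0.56 in wild-type library 2 to 1.99 in wild-type library 1. Differences between the genotype means ran from -0.36 for Acaca to 0.51 for Fasn. With the adipocyte marker mean as a term in the fit, the log2 fold change of Fasn was 0.31 (SE 0.31; edgeR, adjusted p = 0.463) and that of Pck1 0.12 (adjusted p = 0.807), while Srebf1 was at 0.596 (SE 0.16) and was called (adjusted p = 0.024), as were 33.0% of all genes. In that fit the median of the 10 genes was 0.135, with 6 above 0, against a median of 0.040 and 52.0% above 0 over all genes, and Scd1 was at -0.44 (adjusted p = 0.426).

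Other genes of the pathway were taken from a list of 43, of which 39 were tested. Of these, 5 were called higher and 2 lower in Tnc-/-, with a median log2 fold change of 0.14. Dgat1, the second enzyme of the last triglyceride step, rose from 38.2, 30.6 and 35.7 CPM in wild type to 70.5, 63.2, 74.6 and 56.4 CPM in Tnc-/-. Its log2 fold change was 0.91 (SE 0.14; edgeR, adjusted p = 0.0068), the groups did not overlap, and the call held in all 7 fits that left out a library and without both wild-type libraries 2 and 3 (0.79, adjusted p = 0.0418), but not with the receptor gene term (0.74, adjusted p = 0.129). Acacb, the carboxylase isoform whose malonyl-CoA restrains fatty acid oxidation, rose from 81.1, 103 and 90.7 CPM to 140.4, 227, 199 and 123 CPM (0.89, SE 0.23; adjusted p = 0.0212).

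Nr1h2, which encodes the oxysterol receptor LXR-beta, rose from 81.1, 60.6 and 54.1 CPM to 109, 103, 100.4 and 119 CPM (0.71, SE 0.16; edgeR, adjusted p = 0.0127). Lpin2, a phosphatidate phosphatase, rose from 28.5 ± 6.08 to 49.4 ± 10.5 CPM (0.78, SE 0.21; adjusted p = 0.0253). Agpat3, an acyltransferase of phospholipid and triglyceride synthesis, rose from 76.8 ± 12.9 to 117 ± 16.2 CPM (0.59, SE 0.16; adjusted p = 0.0278). Leaving out 1 library ended the call of Acacb in 3 of 7 fits, of Lpin2 in 4, of Agpat3 in 5, of Nr1h2 in 1 and of Mbtps2, below, in 3. Without both wild-type libraries 2 and 3, and with the receptor gene term, these 5 calls were lost. Nr1h2 then stood at 0.41 (edgeR, adjusted p = 0.162) and 0.29 (adjusted p = 0.506), Agpat3 at 0.42 and 0.39, Lpin2 at 0.53 and 0.49, Acacb at 1.08 and 1.22 and Mbtps2 at -0.53 and -0.49. Mbtps2, the site-2 protease that releases active SREBP, fell from 27.7 ± 2.68 to 17.9 ± 1.90 CPM (-0.65, SE 0.16; adjusted p = 0.0193), in a gene that shares 28.4% of its exon bases with Yy2 in GENCODE M21. Mogat2, an acyltransferase known from the gut, was called lower, but its level came from wild-type libraries 2 and 3, at 9.58 and 8.05 CPM against 0.858 CPM in library 1 and 0.333 to 1.56 CPM in Tnc-/-. Its log2 fold change of -2.69 (SE 0.83; adjusted p = 0.0409) turned to 0.16 without those 2 libraries (adjusted p = 0.929), and its call was lost in 6 of the 7 fits that left out a library. Agpat2, the acyltransferase of adipocytes, was listed at 0 in all 7 libraries, as were Lipe and Cpt1b of the lists below, so these files hold no level for them.

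The sterol branch and the opposite pathway were described in the same way. Of 20 genes of cholesterol synthesis and uptake, 2 were called higher and none lower, with a median log2 fold change of 0.20. Fdps, the farnesyl diphosphate synthase, had 16, 0 and 18 counts in wild type and 454 to 840 in Tnc-/- (5.46, SE 0.72; adjusted p = 0.0067). In GENCODE M21 its exons overlap a gene model, Gm43738, that the Tnc-/- files lack, so this value is uncertain as an expression difference. Srebf2, the sterol counterpart of Srebf1, was at 85.3 ± 7.81 and 105 ± 11.8 CPM (0.28, SE 0.13, edgeR, adjusted p = 0.143). It was at 0.43 and called without wild-type library 1 (edgeR, adjusted p = 0.0205), and at 0.043 with library totals. Mvk, mevalonate kinase, was at 10.7 ± 4.32 and 17.7 ± 3.97 CPM (0.71, SE 0.33, adjusted p = 0.134). Without wild-type library 1 Mvk was at 1.06 and called (edgeR, adjusted p = 0.0082). Without wild-type library 2 it was at 0.43, and with the receptor gene term at 0.015.

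Of 23 genes of lipolysis and fatty acid oxidation, 21 were tested, 4 were called higher and 1 lower, and 20 had a log2 fold change above 0, with a median of 0.33. The 10 skeletal muscle markers were all above 0, with a median of 0.65, and the part of muscle in these values was not tested. Mgll, the lipase that splits monoglycerides, rose from 91.0, 87.9 and 80.1 CPM to 136, 137, 149.9 and 116 CPM (0.62, SE 0.13; edgeR, adjusted p = 0.0105). Cpt1a, the carnitine palmitoyltransferase that admits fatty acids to mitochondria, rose from 67.8 ± 5.47 to 100.5 ± 6.66 CPM (0.55, SE 0.12; adjusted p = 0.0119). Both calls held in all 7 fits that left out a library. Both were lost without wild-type libraries 2 and 3 (Mgll 0.56, edgeR adjusted p = 0.0925; Cpt1a 0.64, adjusted p = 0.0509) and with the receptor gene term (Mgll 0.57, adjusted p = 0.199; Cpt1a 0.67, adjusted p = 0.111), at folds near or above those of the reported fit. Library totals lowered Cpt1a to 0.30 and ended its call (adjusted p = 0.114), as it did those of Acacb, Agpat3 and Lpin2, above, and of Ucp3. Ucp3, a mitochondrial carrier of muscle, rose from 32.3 ± 13.4 to 75.2 ± 25.3 CPM (1.198, SE 0.33; adjusted p = 0.0267). Ppargc1a, a coactivator of mitochondrial genes, fell from 23.3 ± 8.64 to 11.7 ± 2.80 CPM (-1.01, SE 0.30; adjusted p = 0.0355). Leaving out 1 library ended the call of Ucp3 in 4 of 7 fits and of Ppargc1a in 6. Ppargc1a was at 14.6 CPM in wild-type library 1 and at 23.3 and 31.9 CPM in libraries 2 and 3. Without the latter pair its log2 fold change was -0.33 (edgeR, adjusted p = 0.511), and with the receptor gene term -0.079 (adjusted p = 0.941). Ucp3 was at 1.48 (adjusted p = 0.0507) and 1.55 (adjusted p = 0.153) in these fits. Calls higher in Tnc-/- thus made up 1 of 10 of the genes described here, 5 of 39, 2 of 20 and 4 of 21 of these lists, against 10.3% of all genes.

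The genes whose pattern over the 7 libraries was most like the mean of the 10 were sought among all other tested genes. Likeness was the root mean square difference of mean-centred log2 CPM. Slc4a8, a bicarbonate transporter, was closest at 0.10 log2 units, with 6.17, 9.06 and 8.35 CPM in wild type and 7.98, 12.2, 12.03 and 6.59 CPM in Tnc-/-. Gm28651 (0.17), Sirt5 (0.18), Kcnj12 (0.19), Arxes2 (0.21), Nos1 (0.21), Igkv1-110 (0.21), Slc7a10 (0.21), Ncor1 (0.21) and Dusp1 (0.21) followed. Of the 10 genes themselves, Dgat2 (0.18), Pck1 (0.22) and Acly (0.23) lay nearest to their common mean, and Srebf1 (0.45) lay farthest from it. The mean of the white adipocyte markers was at 0.21, that of the brown adipocyte markers at 0.32 and that of the skeletal muscle markers at 0.47. None of the 10 genes found this way passed the genotype test.

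The fits that allowed for the libraries standing apart moved the genes in different ways. With the receptor gene sum as a term, the log2 fold change was 2.27 for Fasn (SE 0.58; edgeR, adjusted p = 0.0637), 1.605 for Scd1, 1.58 for Acaca and 1.44 for Pck1, while Srebf1 and Acsl1 dropped to 0.13 and 0.28. None was called in that fit, which called 445 of 17791 genes, against 5159 without the term. The receptor gene sum itself separated the genotypes, so a call lost in that fit does not show that a difference is absent. Without wild-type libraries 2 and 3, a comparison of 1 library with 4 whose spread rests on Tnc-/- alone, the values were 1.81 for Fasn (adjusted p = 0.104), 1.16 for Scd1 and 1.05 for Acaca, and none of the 10 was called. Wild-type library 1 is the lowest library for Fasn and Acaca and the lowest of its genotype for Scd1, so these larger values rest on that 1 library.

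**Figure D5:**
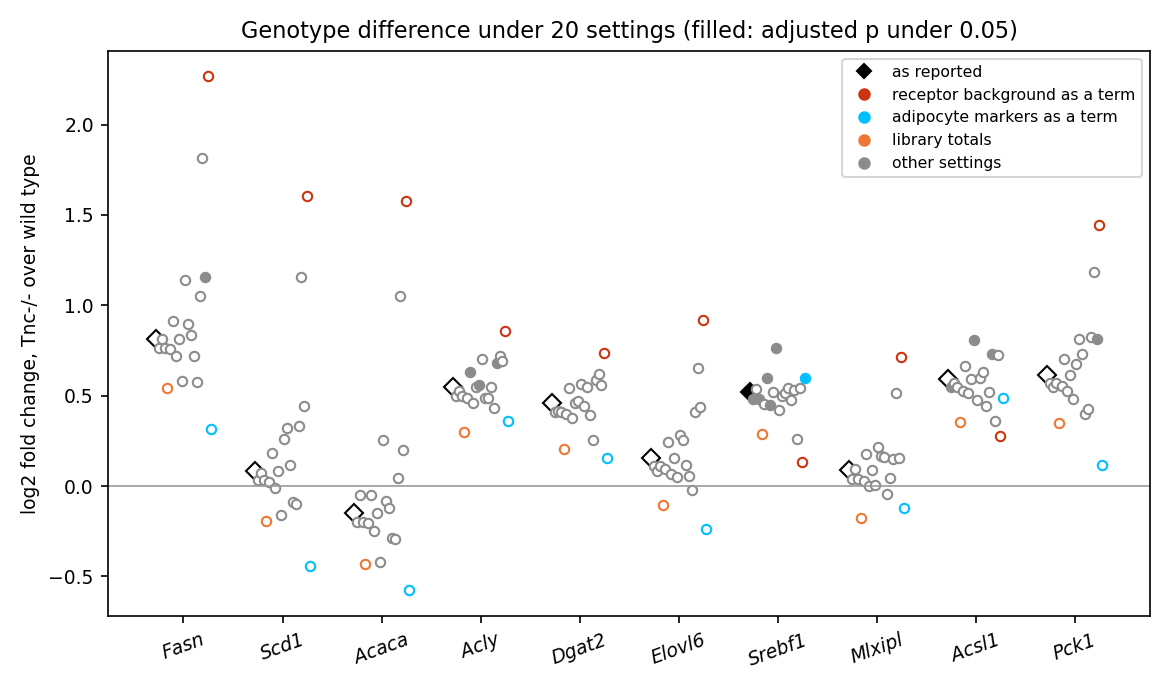
Log2 fold change of each gene under the reported fit (diamond) and 19 alternatives (circles); filled symbols have an adjusted p under 0.05. Fasn, Acly, Dgat2, Srebf1, Acsl1 and Pck1 stay above 0 throughout, and Scd1, Acaca, Elovl6 and Mlxipl lie on both sides of it.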

How the data were processed

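The authors deposited unnormalized read counts by gene in a separate file for each sample. Per the submitters' processing notes, the tools were FastQC 0.11.9, HISAT2 2.2.1, HTSeq 2.0.2 and DESeq2 1.38.3 and the build GRCm39; the annotation and strand setting are not given in the sources used here. Wild-type files listed 56980 identifiers and Tnc-/- files 56941, with 56854 in common. The Tnc-/- files also held 5 rows naming no gene, with 30.1 to 32.7% of their reads, which were left out. Depth was 13464057 to 28191101 gene counts. No column was left unmapped. Exon lengths and overlaps came from GENCODE M21 (GRCm38), and no coordinates were taken from it.

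Counts were tested with edgeR 4.0.16 (R 4.3.3): filterByExpr, TMM scaling, robust quasi-likelihood F test, genotype as the 1 term, Benjamini-Hochberg adjustment over 17791 genes, threshold 0.05. The SE was derived from the log2 fold change and its F statistic. CPM used TMM-scaled library sizes; log2 CPM added a prior count of 2. The code was tested on simulated data. Alternatives used DESeq2 1.42.0, limma 3.58.1 voom, other scalings, filters and adjustment, fits without single libraries, a replicate block, and covariates for 1775 receptor genes or adipocyte markers. All 10 genes are described. Of related lists the called genes, or the 4 of smallest p for the sterol and oxidation lists, were named. Of the marker lists some genes were named and others were not, and none of the skeletal muscle list. The result of 1 gene of the sterol list is not reported here. Genes, lists and tests were chosen with earlier results of these data known.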

Additional observations from a re-analysis of the deposited data

How the results depend on the processing

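The count of called genes among the 10 was 1. It was 2 with DESeq2 (6249 genes called in all), with no filter on low counts (7648 of 29121) and with the replicate block, and 0 with limma voom (973), library totals (5492), upper-quartile scaling (4905), Bonferroni adjustment (22 in all), the receptor gene term (445 in all) and without both wild-type libraries 2 and 3 (825 in all). At an unadjusted p under 0.05 the fits with 0 calls had 1 to 6. Leaving out single libraries gave 0 to 3 calls, and 2229 to 14113 of all genes against 5159. Their names changed: Acly, Srebf1 and Acsl1 without wild-type library 1 (14113 in all), and Acly and Acsl1 without Tnc-/- library 4. The median log2 fold change of the 10 moved to 0.89 with the receptor gene term and to 0.135 with the adipocyte marker term. Among genes not called, signs changed as follows. Scd1 was at -0.19 with library totals, -0.011 with at least 10 counts in every library and -0.44 with the adipocyte marker term, and from -0.16 to 0.33 without single libraries. Mlxipl was at -0.18, -5.4e-05 and -0.12 in the same fits, and from -0.044 to 0.21. Elovl6 was at -0.10 with library totals and -0.24 with the adipocyte term, and from -0.025 to 0.41. Acaca was at 1.05 without wild-type libraries 2 and 3, 0.20 with the replicate block and 1.58 with the receptor gene term, and from -0.42 to 0.25. Mogat2, which was called, was at 0.16 and 1.12 in the first and last of these. The cause of these shifts was not tested. Among the related genes, library totals ended the calls of Acacb, Agpat3, Lpin2, Ucp3 and Cpt1a, and limma voom those of Acacb (adjusted p = 0.0621), Agpat3 (0.0679), Lpin2 (0.0713), Ucp3 (0.067) and Ppargc1a (0.0937), among others.

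The labels give no pairing of the samples by replicate number. Same-numbered libraries deviated from their group means with correlations of -0.029, 0.073 and -0.014 over 17791 genes. Libraries of different numbers ran from -0.078 to 0.084, so these values cannot decide whether samples were paired. With the number as a replicate block, 1932 genes were called in all. Of the 10, these were Fasn (1.16, edgeR, adjusted p = 0.0343) and Pck1 (adjusted p = 0.022) but not Srebf1 (0.54, adjusted p = 0.0812). Tnc-/- library 4 is alone in its block, so that fit takes nothing from it for the genotype difference. That library is the lowest of its group for both Fasn and Pck1. Of the related genes, the block ended the call of Cpt1a (0.58, adjusted p = 0.057), among others. These folds were as large as without the block. With 3 and 4 libraries and this spread, differences of the size seen here in Fasn, with an SE of 0.44, could not be told from 0.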

Other observations

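The ratio of one of the 10 genes to another within a library does not depend on scaling. All 45 pairs were computed after the levels had been seen. In 3 of them (6.67%) the genotypes did not overlap, and each of the 3 held Fasn. Fasn was at 0.37, 0.402 and 0.299 of the Scd1 level in wild-type libraries 1 to 3 and at 0.601, 0.52, 0.626 and 0.627 in Tnc-/- libraries 1 to 4. On the log2 scale the ratio was higher in Tnc-/- by 0.74 (SE 0.14; exact two-sided permutation test over 35 splits, p = 0.0571, the smallest this design allows; 0.762 adjusted over the pairs). Tnc-/- library 4, low for both genes, had a ratio like the rest of its group, and wild-type library 1 like the rest of its own. The ratio of Fasn to Acaca was 2.83 ± 0.29 in wild type (SD, n = 3) and 5.18 ± 0.71 in Tnc-/- (SD, n = 4), and that of Fasn to Elovl6 12.1 ± 3.11 and 19.98 ± 1.91, with the same p. Without single libraries, the log2 difference of Scd1 to Fasn ran from -0.83 to -0.62. As background, the ratio to Fasn did not overlap between the genotypes for 19.3% of the 13072 genes that averaged 5 CPM or more, against 3 of the 9 other genes of the list.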
